A study of Mus musculus with 6 samples.

Results

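Described here are 33 genes of the T cell receptor complex and its signalling chain, in 6 tumours of HM1, an ovarian cancer cell line of the mouse. They were chosen by symbol from a list of CD3 chains, co-receptors, accessory receptors, kinases, adaptors and downstream enzymes and transcription factors, and all 33 were found once among the 57462 genes of the files. In 3 tumours the sialyltransferase gene St3gal3 was knocked down by short hairpin RNA (shST3GAL3). The other 3 are titled as hairpin controls and labelled wild type (shControl). The design text calls the model an early tumour model and asks how the knockdown altered the tumour transcriptome. The labels give no mouse strain, age or injection site, and do not say whether the hairpin line was 1 clone. They also leave unsaid whether each sample is from its own mouse, and p-values here reflect sample-to-sample spread that may be technical. The members were sorted by known expression into 23 that are largely limited to T cells and, for many of them, natural killer (NK) cells, called T-restricted below, 4 used by most leukocytes (Ptprc, Lcp2, Vav1 and Cd69) and 6 used by many cell types (Fyn, Plcg1, Bcl10, Malt1, Nfatc1 and Nfatc2).

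As background, the T cell receptor has no signalling tail of its own. Binding of peptide and MHC is passed on by the CD3 chains and the zeta chain, whose tyrosines are phosphorylated by Lck, brought in by CD4 or CD8, and then bound by Zap70. Zap70 phosphorylates the adaptors Lat and SLP-76, on which phospholipase C gamma 1, Vav1 and Ras activators assemble, and the signal ends in NFAT, NF-kB and MAP kinase activity. In tumours these transcripts serve as a measure of infiltrating T cells. In whole tumour tissue, more T cells and more RNA per T cell cannot be told apart.

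Values are TPM, a relative abundance corrected for gene length, from which sequencing depth cannot be recovered. Of the genes with at least 1 TPM in 3 or more libraries, 14207 were tested with limma on log2(TPM + 1). After adjustment over all of them 0 were higher (0% of those tested) and 1 was lower (0.00704%) in shST3GAL3 tumours at an adjusted p under 0.05. At an unadjusted p under 0.05, 9.19% of all tested genes were higher and 3.78% lower. Of the genes past that limit 70.8% were higher, a share that was 55.2% with median-ratio scaling and 47.8% with quantile normalization. St3gal3 stood at 8.44, 6.77 and 7.49 TPM in shST3GAL3 1, 2 and 3, against 14.03, 13.84 and 13.79 TPM in shControl 1, 2 and 3, all lower as the labels have it. Its log2 fold change was -0.80 (SE 0.11, limma adjusted p = 0.35), so it was not the gene called lower. Of the epithelial markers, Krt8, Krt18 and Krt19 were abundant (384.42 to 1227.06 TPM in shST3GAL3 and 884.94 to 1303.81 TPM in shControl tumours), while Epcam and Krt7 stayed at or under 1.17 TPM in every library.

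T cell receptor genes had higher mean levels in shST3GAL3 tumours throughout the pathway. On log2(TPM + 1) the largest fold changes were those of the co-receptor gene Cd4, the adhesion receptor gene Cd2, the kinase gene Fyn and the CD3 chain gene Cd3d. Of the 33 members 30 passed the filter on low values, and all 30 had a positive log2 fold change, as did 52.7% of all tested genes. At an unadjusted p under 0.05, 15 of the 30 were higher and 0 lower, against the background of 9.19% higher, and 0 passed after adjustment over all genes (limma adjusted p = 0.38 or more). That count depends on how libraries are weighted. With limma's default library weights 10 of the 30 passed and were higher (Cd3d, Cd247, Cd4, Cd8b1, Cd2, Lck, Fyn, Zap70, Lat and Lcp2, adjusted p = 0.0365 to 0.0474), as were 3.98% of all tested genes. Those weights were 0.179, 6.17 and 0.599 for shST3GAL3 1, 2 and 3, against 1.26, 1.08 and 1.12 for shControl 1, 2 and 3, and their estimation stopped with a warning before it converged. With gene-by-gene weights, tried after those calls were seen, 0 of the 30 passed. For 14 of the 30 the groups did not overlap, with shST3GAL3 higher, against 15.7% of all tested genes, and for 0 with shST3GAL3 lower, against 7.76%. The median log2 fold change was 0.63 over the 20 T-restricted members tested, 0.52 over the 4 leukocyte-wide and 0.28 over the 6 broad members, against 0.0132 over all tested genes. The count of 15 was 9 without shST3GAL3 2, 5 without shControl 2, 4 without shControl 3 and 25 without shST3GAL3 3, where 7.67%, 4.41%, 4.76% and 12.7% of all tested genes were higher by the same rule. Of the tested members 27 had at least 1 TPM in all 3 shControl libraries. Prkcq, Ubash3a and Sla2 did not, and owed their place partly to the shST3GAL3 libraries. Of these only Ubash3a is counted among the 15 and among the 14.

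**Figure D1:**
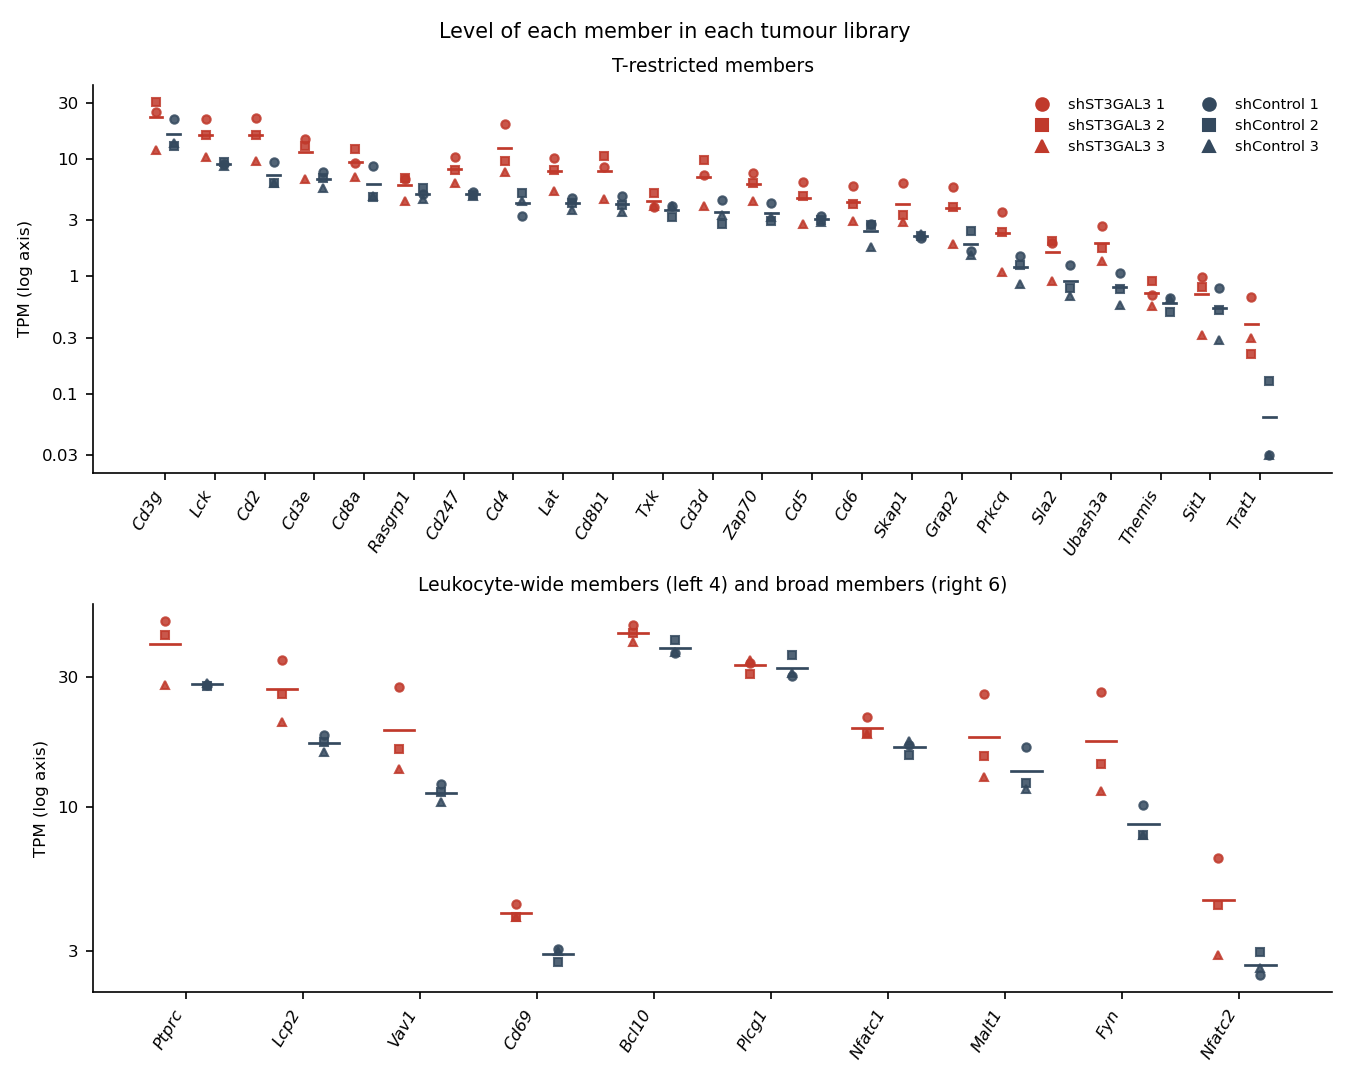
Level of all 33 members in TPM on a log axis, 1 symbol per tumour library, with shST3GAL3 in red at the left and shControl in dark blue at the right of each gene and short lines for the means (n = 3 each). shST3GAL3 3, the red triangles, is the lowest of its group for 29 of the 33 members.

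**Figure D2:**
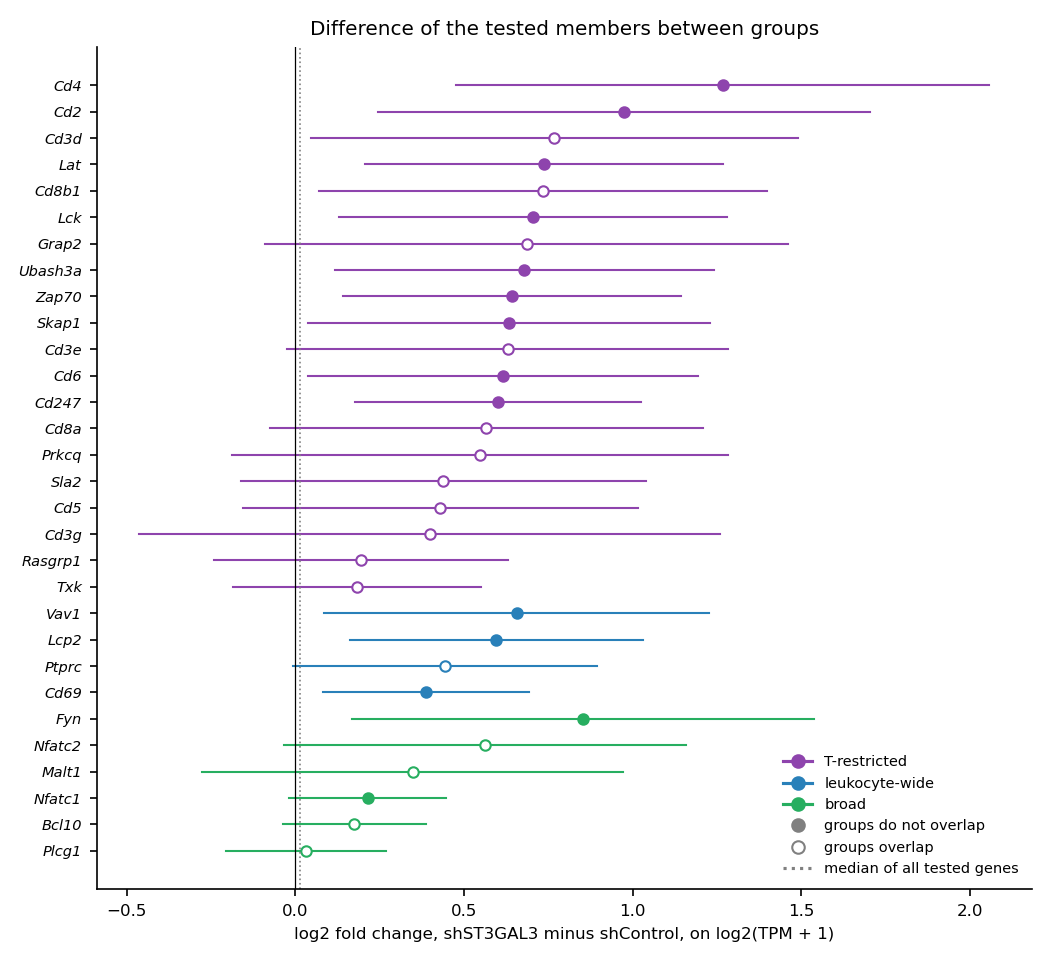
Log2 fold change of the 30 tested members on log2(TPM + 1), shST3GAL3 minus shControl, with 95% intervals from limma, coloured by class. Filled points mark the 14 members whose groups do not overlap, and the dotted line is the median of all tested genes at 0.0132.

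The CD3 chains, which couple the receptor to the kinases, had higher means in shST3GAL3 tumours, with overlap for 3 of the 4. Their RefSeq promoters (build GRCm38.p6, 250 bases before to 50 after the annotated start, 5′ to 3′) are shown because the results below set their levels against each other, with the promoter of the broad member Bcl10 for contrast. Capitals mark CG dinucleotides. The windows are chr9:44980382-44980681 on the minus strand for Cd3g, chr9:44981536-44981835 on the plus strand for Cd3d, chr9:45009562-45009861 on the minus strand for Cd3e and chr3:145924012-145924311 on the plus strand for Bcl10.
Cd3g: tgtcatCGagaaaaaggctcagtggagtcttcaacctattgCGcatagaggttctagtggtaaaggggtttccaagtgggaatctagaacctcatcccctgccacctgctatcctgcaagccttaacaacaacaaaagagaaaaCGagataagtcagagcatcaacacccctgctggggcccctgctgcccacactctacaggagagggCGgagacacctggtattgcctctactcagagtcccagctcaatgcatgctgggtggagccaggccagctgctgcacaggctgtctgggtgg
Cd3d: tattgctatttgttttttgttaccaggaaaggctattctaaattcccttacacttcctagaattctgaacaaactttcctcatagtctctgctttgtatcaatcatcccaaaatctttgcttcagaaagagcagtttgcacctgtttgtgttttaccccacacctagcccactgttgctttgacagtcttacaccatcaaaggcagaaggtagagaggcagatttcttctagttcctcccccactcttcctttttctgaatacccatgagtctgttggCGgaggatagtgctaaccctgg
Cd3e: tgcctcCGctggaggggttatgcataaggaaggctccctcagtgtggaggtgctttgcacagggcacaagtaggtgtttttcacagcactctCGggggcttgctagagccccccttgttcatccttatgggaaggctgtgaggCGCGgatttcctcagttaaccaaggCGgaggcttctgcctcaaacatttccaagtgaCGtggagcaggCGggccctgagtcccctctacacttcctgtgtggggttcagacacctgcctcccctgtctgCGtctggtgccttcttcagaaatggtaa
Bcl10: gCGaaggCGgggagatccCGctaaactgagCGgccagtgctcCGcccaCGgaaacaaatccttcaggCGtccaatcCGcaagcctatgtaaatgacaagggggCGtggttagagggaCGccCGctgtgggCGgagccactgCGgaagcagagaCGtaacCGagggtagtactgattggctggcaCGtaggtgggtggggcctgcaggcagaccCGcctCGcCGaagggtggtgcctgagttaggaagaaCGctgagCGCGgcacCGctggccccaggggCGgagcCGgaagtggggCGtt

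Cd3g, which encodes the gamma chain, stood at 25.21, 30.39 and 11.92 TPM in shST3GAL3 1, 2 and 3, against 22.01, 12.86 and 13.56 TPM in shControl 1, 2 and 3. Its lowest value of all was in shST3GAL3 3, so the groups overlapped (log2 fold change 0.40, SE 0.36), and the fold change was 0.14 without shST3GAL3 2 and 0.78 without shST3GAL3 3. Cd3d, for the delta chain, stood at 7.33, 9.76 and 3.96 TPM in shST3GAL3 tumours, against 4.48, 2.80 and 3.32 TPM in shControl tumours (0.77, SE 0.30, unadjusted p = 0.0399). Only shST3GAL3 3 fell within the shControl range. Cd3e, for the epsilon chain, stood at 14.69, 12.89 and 6.76 TPM in shST3GAL3 tumours, against 7.67, 6.89 and 5.67 TPM in shControl tumours (0.63, SE 0.27), with the same library inside the range. Cd247, for the zeta chain that carries most of the signalling tyrosines, stood at 10.38, 8.12 and 6.26 TPM in shST3GAL3 tumours, against 5.20, 4.96 and 4.85 TPM in shControl tumours. Its groups did not overlap (0.60, SE 0.18, limma adjusted p = 0.38). In GENCODE M21, 56.4% of the annotated exon bases of Cd247 are shared with Pou2f1 on the opposite strand. Whether the counting used strand is not given, so the level of Cd247 is uncertain.

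Levels of the CD3 chains, compared per length in TPM, followed the order Cd3g, Cd3e, Cd247, Cd3d in 5 of the 6 libraries, and in shST3GAL3 2 Cd3d stood above Cd247. The ratio of Cd3g to Cd3d was 3.44, 3.11 and 3.01 in shST3GAL3 1, 2 and 3, against 4.91, 4.59 and 4.08 in shControl 1, 2 and 3. The groups did not overlap, with means of 3.19 ± 0.224 in shST3GAL3 and 4.53 ± 0.418 in shControl tumours (SD, n = 3 each). An exact two-sided permutation test of the log2 ratio gave p = 0.1 (adjusted p = 0.45 over 9 ratios), and 0.1 is the smallest p that 3 against 3 samples allow. The ratio of Cd247 to Cd3e was 0.754 ± 0.154 in shST3GAL3 and 0.751 ± 0.0927 in shControl tumours (SD, n = 3 each), a difference within the spread between libraries.

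Among the co-receptor genes Cd4 had the largest fold change of the tested members. Cd4, which brings Lck to receptors bound to MHC class II and marks helper and regulatory T cells, stood at 20, 9.65 and 7.80 TPM in shST3GAL3 1, 2 and 3, against 3.30, 5.09 and 4.38 TPM in shControl 1, 2 and 3. The groups did not overlap, with means of 12.5 ± 6.58 TPM in shST3GAL3 and 4.26 ± 0.901 TPM in shControl tumours (log2 fold change 1.27, SE 0.33). Unadjusted p was 0.00708 (limma adjusted p = 0.38), and without shST3GAL3 1 the log2 fold change was 0.90. Cd8a, for the alpha chain of the cytotoxic T cell co-receptor, stood at 9.15, 12.07 and 6.98 TPM in shST3GAL3 tumours, against 8.74, 4.71 and 4.86 TPM in shControl tumours. shControl 1 lay above shST3GAL3 3, so the groups overlapped (0.57, SE 0.27). Cd8b1, for the beta chain, stood at 8.57, 10.59 and 4.59 TPM in shST3GAL3 tumours, against 4.88, 4.02 and 3.55 TPM in shControl tumours (0.74, SE 0.28, unadjusted p = 0.0347), again with overlap from shST3GAL3 3.

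The balance of Cd4 to Cd8a varied more between libraries than between groups. The ratio was 2.19, 0.8 and 1.12 in shST3GAL3 1, 2 and 3, against 0.378, 1.08 and 0.901 in shControl 1, 2 and 3 (exact two-sided permutation p = 0.4, adjusted p = 0.675). shST3GAL3 1 was the richest in Cd4 relative to Cd8a and shControl 1 the poorest. The ratio of Cd8b1 to Cd8a was 0.824 ± 0.147 in shST3GAL3 and 0.714 ± 0.148 in shControl tumours (SD, n = 3 each, exact two-sided permutation p = 0.5, adjusted p = 0.675). Cd8a, unlike Cd8b1, is also made by a subset of dendritic cells. Markers of dendritic cells, of which 5 of 7 were tested, summed to 48.98 to 66.29 TPM in shST3GAL3 and 33.26 to 43.70 TPM in shControl tumours. Most of that sum was Itgax, at 39.88 to 54.19 TPM in shST3GAL3 and 25.65 to 35.54 TPM in shControl tumours. Itgax and Flt3 were the 2 of the 5 with an unadjusted p under 0.05 and higher values, against 9.19% of all tested genes. Flt3 was under 1 TPM in all shControl libraries and passed the filter on low values only through the shST3GAL3 libraries. Clec9a, Xcr1 and Zbtb46 had log2 fold changes of 0.36 (SE 0.16), 0.16 (SE 0.27) and 0.10 (SE 0.16). The part of dendritic cells in the Cd8a and Cd4 levels was not tested.

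**Figure D3:**
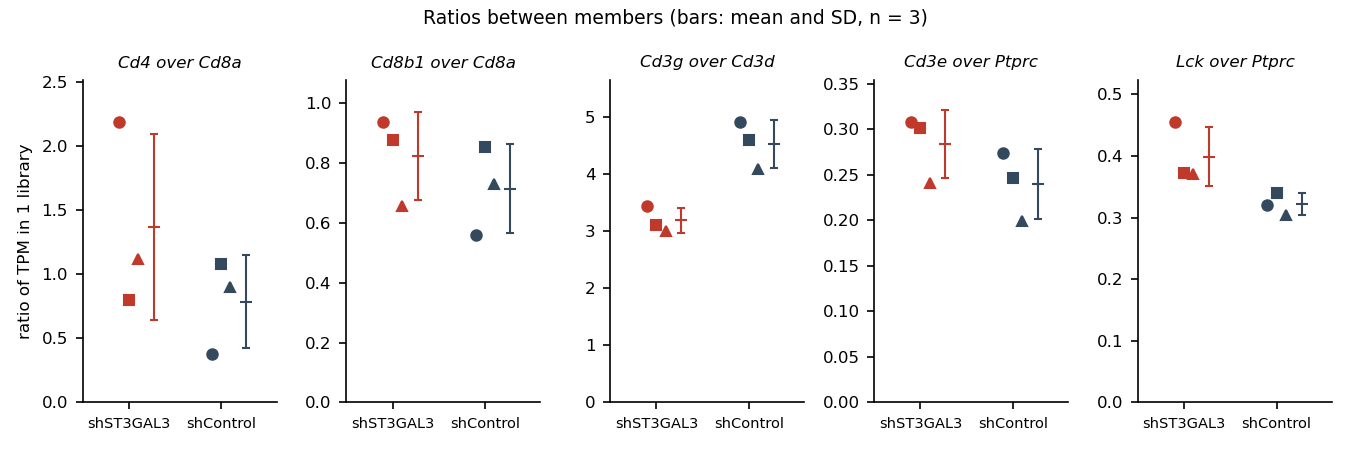
Ratios of TPM between members within each library, with shST3GAL3 at the left of shControl, symbols for replicates 1 (circle), 2 (square) and 3 (triangle), and bars for mean and SD (n = 3 each). The groups are apart for Cd3g over Cd3d and Lck over Ptprc, and overlap for Cd4 over Cd8a, Cd8b1 over Cd8a and Cd3e over Ptprc.

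Of the accessory receptors Cd2 and Cd6 had groups that did not overlap. Cd2, an adhesion receptor of lymphocytes that binds CD48 in mice, stood at 22.43, 15.85 and 9.55 TPM in shST3GAL3 1, 2 and 3, against 9.46, 6.26 and 6.23 TPM in shControl 1, 2 and 3. The lowest shST3GAL3 value exceeded the highest shControl value only narrowly (log2 fold change 0.97, SE 0.31, unadjusted p = 0.0163). Cd6, a receptor for the adhesion molecule ALCAM, stood at 5.87, 4.16 and 2.99 TPM in shST3GAL3 tumours, against 2.80, 2.72 and 1.78 TPM in shControl tumours (0.62, SE 0.24, unadjusted p = 0.0401). Cd5, a receptor that dampens T cell receptor signals, stood at 6.30, 4.86 and 2.82 TPM in shST3GAL3 tumours, against 3.25, 3.04 and 2.89 TPM in shControl tumours. Its value in shST3GAL3 3 was the lowest of the 6 (0.43, SE 0.24, and 0.22 without shST3GAL3 1). Ptprc encodes CD45, the phosphatase of all leukocytes that keeps Lck ready for activation. It stood at 47.76, 42.73 and 28.05 TPM in shST3GAL3 tumours, against 28.00, 27.85 and 28.45 TPM in shControl tumours. The shControl libraries were nearly equal and shST3GAL3 3 stood with them (0.44, SE 0.19, and 0.29 without shST3GAL3 1).

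The kinase genes Lck, Zap70 and Fyn had groups that did not overlap, while those of Txk overlapped. Lck, the first kinase of the pathway, stood at 21.74, 15.89 and 10.38 TPM in shST3GAL3 1, 2 and 3, against 9.0, 9.46 and 8.65 TPM in shControl 1, 2 and 3 (log2 fold change 0.70, SE 0.24, unadjusted p = 0.0235, and 0.47 without shST3GAL3 1). Zap70, which docks on the phosphorylated CD3 and zeta chains, stood at 7.57, 6.24 and 4.4 TPM in shST3GAL3 tumours, against 4.25, 2.98 and 3.22 TPM in shControl tumours (0.64, SE 0.21, unadjusted p = 0.0193). Fyn, a kinase related to Lck that is made in many cell types, stood at 26.32, 14.37 and 11.51 TPM in shST3GAL3 tumours, against 10.18, 7.94 and 7.92 TPM in shControl tumours. Its log2 fold change of 0.85 (SE 0.29, unadjusted p = 0.022) on log2(TPM + 1) exceeded that of all tested T-restricted members other than Cd4 and Cd2. It was 0.53 without shST3GAL3 1. With a pseudocount of 0.1 Ubash3a (1.14) also exceeded Fyn (0.91). Txk, a Tec family kinase of T cells, stood at 3.93, 5.15 and 3.97 TPM in shST3GAL3 tumours, against 3.95, 3.19 and 3.97 TPM in shControl tumours. Among the tested T-restricted members its fold change was the smallest (0.18, SE 0.15, 95% interval -0.19 to 0.55).

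The adaptors, which hold the signalling complex together, included 9 members, of which 6 were tested. Of these 4 had an unadjusted p under 0.05 with higher values, against 9.19% of all tested genes. The 4 include Ubash3a, which passed the filter on low values partly through the shST3GAL3 libraries. Lat, the membrane scaffold that Zap70 phosphorylates, stood at 10.19, 8.02 and 5.34 TPM in shST3GAL3 1, 2 and 3, against 4.69, 4.24 and 3.64 TPM in shControl 1, 2 and 3 (log2 fold change 0.74, SE 0.22, unadjusted p = 0.0138). Lcp2 encodes SLP-76, the scaffold joined to Lat, and stood at 34.45, 25.97 and 20.54 TPM in shST3GAL3 tumours, against 18.30, 17.28 and 15.90 TPM in shControl tumours (0.60, SE 0.18, unadjusted p = 0.0147). For neither gene did the groups overlap. Grap2 encodes Gads, the bridge between Lat and SLP-76, and stood at 5.76, 3.91 and 1.90 TPM in shST3GAL3 tumours, against 1.65, 2.46 and 1.52 TPM in shControl tumours. shControl 2 exceeded shST3GAL3 3 here (0.69, SE 0.32, and 0.41 without shST3GAL3 1). Skap1, an adaptor that links the receptor to integrins, stood at 6.27, 3.33 and 2.92 TPM in shST3GAL3 tumours, against 2.11, 2.21 and 2.31 TPM in shControl tumours, without overlap (0.63, SE 0.25, unadjusted p = 0.04, and 0.36 without shST3GAL3 1).

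Adaptors that restrain the receptor were present at low levels. Ubash3a, a negative regulator of T cell receptor signalling, stood at 2.70, 1.73 and 1.35 TPM in shST3GAL3 1, 2 and 3, against 1.07, 0.78 and 0.57 TPM in shControl 1, 2 and 3, without overlap (log2 fold change 0.68, SE 0.24, unadjusted p = 0.0248). Sla2, which promotes the removal of the receptor from the surface, stood at 1.94, 2.01 and 0.91 TPM in shST3GAL3 tumours, against 1.26, 0.79 and 0.68 TPM in shControl tumours (0.44, SE 0.25). In GENCODE M21 it shares 23.6% of its exon bases with Rab5if on the opposite strand, which leaves its level uncertain. The other 3 adaptors stayed under 1 TPM in all 6 libraries and were not tested. Themis, named for its part in thymocyte selection, ranged over 0.56 to 0.92 TPM in shST3GAL3 and 0.50 to 0.66 TPM in shControl tumours. Sit1, a transmembrane adaptor, ranged over 0.32 to 0.98 TPM in shST3GAL3 and 0.29 to 0.80 TPM in shControl tumours. Trat1, a transmembrane adaptor of the receptor complex, ranged over 0.22 to 0.67 TPM in shST3GAL3 and 0.03 to 0.13 TPM in shControl tumours. Of these only Trat1 had groups that did not overlap, at levels where no firm fold can be given.

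Of the 8 members downstream of the adaptors 1 (Vav1) had an unadjusted p under 0.05, against 9.19% of all tested genes. Vav1, an exchange factor for Rac, stood at 27.44, 16.33 and 13.77 TPM in shST3GAL3 1, 2 and 3, against 12.15, 11.34 and 10.46 TPM in shControl 1, 2 and 3. The groups did not overlap (log2 fold change 0.66, SE 0.24, unadjusted p = 0.0301, and 0.38 without shST3GAL3 1). Plcg1, the phospholipase that makes calcium and diacylglycerol signals, stood at 33.77, 30.60 and 34.55 TPM in shST3GAL3 tumours, against 30.12, 35.96 and 30.82 TPM in shControl tumours. It was the only tested member whose highest value was in a shControl library, and its log2 fold change of 0.03 (SE 0.10, 95% interval -0.21 to 0.27) changed sign under several alternatives. Rasgrp1, a Ras activator that diacylglycerol recruits, stood at 6.71, 6.93 and 4.42 TPM in shST3GAL3 tumours, against 5.0, 5.66 and 4.53 TPM in shControl tumours (0.19, SE 0.18, 95% interval -0.24 to 0.63). Prkcq encodes protein kinase C theta, the route to NF-kB, and stood at 3.56, 2.41 and 1.10 TPM in shST3GAL3 tumours, against 1.49, 1.25 and 0.87 TPM in shControl tumours (0.55, SE 0.31, and 0.29 without shST3GAL3 1). Skeletal muscle also makes Prkcq, and the 7 muscle markers summed to 4.37, 380.41 and 74.80 TPM in shST3GAL3 1, 2 and 3, against 118.12, 3.49 and 23.22 TPM in shControl 1, 2 and 3. The part of muscle in the Prkcq level was not tested.

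Bcl10 and Malt1, partners in the complex that activates NF-kB, had overlapping groups. Bcl10 stood at 46.20, 43.46 and 40.01 TPM in shST3GAL3 1, 2 and 3, against 36.72, 40.91 and 36.82 TPM in shControl 1, 2 and 3 (log2 fold change 0.18, SE 0.09). Malt1 stood at 25.88, 15.43 and 12.88 TPM in shST3GAL3 tumours, against 16.59, 12.32 and 11.69 TPM in shControl tumours (0.35, SE 0.26), and the fold change was 0.07 without shST3GAL3 1. The NFAT factors carry the calcium signal to the nucleus. Nfatc1 stood at 21.31, 18.67 and 18.54 TPM in shST3GAL3 tumours, against 16.87, 15.57 and 17.54 TPM in shControl tumours, without overlap (0.21, SE 0.10, unadjusted p = 0.0658). Nfatc2 stood at 6.53, 4.39 and 2.89 TPM in shST3GAL3 tumours, against 2.45, 2.96 and 2.59 TPM in shControl tumours, with overlap (0.56, SE 0.25, and 0.32 without shST3GAL3 1). Cd69, an early surface marker of activated lymphocytes, stood at 4.42, 3.97 and 3.98 TPM in shST3GAL3 tumours, against 3.03, 2.72 and 3.00 TPM in shControl tumours. Its groups were tight and did not overlap (0.39, SE 0.13, unadjusted p = 0.02). Relative to Cd3e it stood at 0.399 ± 0.164 in shST3GAL3 and 0.44 ± 0.0775 in shControl tumours (SD, n = 3 each), with overlap.

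By class, log2 fold changes of T-restricted members ran from 0.18 to 1.27 around the median of 0.63, and those of broad members from 0.03 to 0.85 around 0.28. Of the 20 T-restricted members tested, 11 had an unadjusted p under 0.05 with higher values, against 9.19% of all tested genes, and 9 had groups that did not overlap, against 15.7%. Of the 6 broad members these were 1 (Fyn) and 2 (Fyn and Nfatc1), and 1 of 6 is near the share of all genes. Of the 4 leukocyte-wide members 3 (Lcp2, Vav1 and Cd69) met each criterion. Both T-restricted counts include Ubash3a, which passed the filter on low values partly through the shST3GAL3 libraries. The classes were compared as a description, with no test over the members. Without shST3GAL3 1 the medians were 0.44 for T-restricted and 0.14 for broad members.

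Relative to Ptprc, as a measure of leukocyte transcript in each library, most T-restricted members still had a higher mean ratio in shST3GAL3 tumours. That was so for 17 of the 20 tested, against 14.1% of all tested genes, with Cd3g, Txk and Rasgrp1 as the exceptions. The ratio was higher without overlap between groups for 6 of them (Cd247, Cd4, Cd2, Lck, Lat and Ubash3a), against 2.83% of all tested genes. In the lower direction this was so for 0, against 16.7%. Ubash3a among the 6, and Prkcq and Sla2 among the 17, passed the filter on low values partly through the shST3GAL3 libraries. All these ratios share the Ptprc values, which were higher in 2 of the 3 shST3GAL3 tumours. Of the 6 broad members 2 had a higher mean ratio, with a median log2 difference of -0.16, against 0.35 for the T-restricted members. The higher ratio was not limited to T cell genes. It was found for 3 of 3 other leukocyte-wide members, 6 of 8 macrophage markers and 8 of 8 fibroblast markers, the last with 6 not overlapping and a median of 1.14. Lck over Ptprc was 0.455, 0.372 and 0.37 in shST3GAL3 1, 2 and 3, against 0.321, 0.34 and 0.304 in shControl 1, 2 and 3 (exact two-sided permutation p = 0.1, adjusted p = 0.45). Cd3e over Ptprc was 0.283 ± 0.0369 in shST3GAL3 and 0.24 ± 0.0378 in shControl tumours, with overlap (SD, n = 3 each, exact two-sided permutation p = 0.3, adjusted p = 0.675).

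The members did not peak in the same library. Of the 33, 24 were highest in shST3GAL3 1, 8 in shST3GAL3 2 and 1 in shControl 2. The 8 that peaked in shST3GAL3 2 were all T-restricted, namely Cd3d, Cd3g, Cd8a, Cd8b1, Txk, Themis, Sla2 and Rasgrp1. All 23 T-restricted members stood above the shControl range in shST3GAL3 2, 22 in shST3GAL3 1 and 10 in shST3GAL3 3. The median deviation of T-restricted members from the shControl mean, on log2(TPM + 1), was 0.98, 0.73 and 0.16 in shST3GAL3 1, 2 and 3, against 0.17, -0.01 and -0.16 in shControl 1, 2 and 3. shST3GAL3 3 thus lay within the shControl range. For broad members it was 0.62, 0.19 and 0.09 in shST3GAL3 tumours, against -0.02, 0.00 and -0.05 in shControl tumours.

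Summed markers of several other cell types were also higher in shST3GAL3 tumours, and their part in these results was not tested. After adjustment over all genes 0 of the markers passed in limma, and their counts at an unadjusted p under 0.05 stand against 9.19% of all tested genes. Of the 8 NK cell markers 5 were tested and 1 (Prf1) had an unadjusted p under 0.05, while Eomes was lower (log2 fold change -0.22). The list summed to 38.31 to 51.76 TPM in shST3GAL3 and 23.48 to 37.11 TPM in shControl tumours. Most of that sum was Prf1, at 27.56 to 34.27 TPM in shST3GAL3 and 12.09 to 25.62 TPM in shControl tumours. The median deviation of the 5 from the shControl mean was 0.88, 0.50 and -0.01 in shST3GAL3 1, 2 and 3. In shControl 1, 2 and 3 it was -0.0034, 0.05 and 0.08. Since NK cells also make Cd247, Cd2, Lck, Zap70, Lat and Skap1, these genes do not measure T cells alone. Macrophage markers summed to 1284.20 to 2276.40 TPM in shST3GAL3 and 1080.70 to 1293.70 TPM in shControl tumours, and 3 of 8 had an unadjusted p under 0.05. For mast cell markers, which matter because mast cells make Lat and Lcp2, the sums were 36.81 to 95.65 TPM in shST3GAL3 and 20.40 to 32.92 TPM in shControl tumours, with 4 of 4 tested genes past that limit. The platelet markers summed to 117.71 to 308.71 TPM in shST3GAL3 and 104.87 to 145.36 TPM in shControl tumours, and 0 of 3 tested genes passed it. Fibroblast markers, 8 of 8 past the limit, summed to 978.71 to 4745.20 TPM in shST3GAL3 and 518.39 to 809.97 TPM in shControl tumours. Endothelial markers, 5 of 6 past it, summed to 82.81 to 211.29 TPM in shST3GAL3 and 43.37 to 58.32 TPM in shControl tumours. Both lists were highest in shST3GAL3 1, the library with the lowest tumour epithelium sum (1768.40, 2686.70 and 3193.90 TPM in shST3GAL3 1, 2 and 3, against 3193.80 to 3673.50 TPM in shControl tumours). Krt8, Krt18 and Krt19 made up most of that sum in every library. Cdh1, Wt1 and Epcam of the same list were instead highest in shST3GAL3 1, at 9.46, 3.01 and 1.17 TPM. Handling stress genes summed to 479.34 to 736.66 TPM in shST3GAL3 and 399.45 to 424.20 TPM in shControl tumours, with 2 of 10 past the limit.

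Of lists for other lymphoid sources, some markers were at or near 0 and others were not. The thymocyte genes Rag1 and Rag2, which cut receptor genes in immature lymphocytes, stayed at or under 0.02 TPM in all libraries. Only 1 of the 5 thymocyte markers was tested, and the list, led by Cd1d1, summed to 4.18 to 9.60 TPM in shST3GAL3 and 3.48 to 4.70 TPM in shControl tumours. Ms4a1, the B cell gene for CD20, reached 0.32 TPM at most in shST3GAL3 and 0.02 TPM at most in shControl tumours. The 8 B cell markers, 2 of them tested and 1 past the limit, summed to 2.76 to 8.58 TPM in shST3GAL3 and 2.66 to 3.28 TPM in shControl tumours. The 1 past it was Cd79b, at 0.34 to 0.54 TPM in shControl libraries, which passed the filter on low values only through the shST3GAL3 libraries. The other tested marker, Bank1, had a log2 fold change of -0.12 (SE 0.22). Plasma cell markers summed to 4070.40, 319.12 and 43.81 TPM in shST3GAL3 1, 2 and 3, against 20.17, 53.67 and 7.04 TPM in shControl 1, 2 and 3, and the antibody gene Igkc made up most of the sum in every library but shControl 3. The lymph node markers, 1 of 7 tested, summed to 13.54 to 30.83 TPM in shST3GAL3 and 3.06 to 13.55 TPM in shControl tumours. The list was led by Ccl21a in all but shST3GAL3 1, where the vessel gene Glycam1 was highest at 4.47 TPM.

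**Figure D4:**
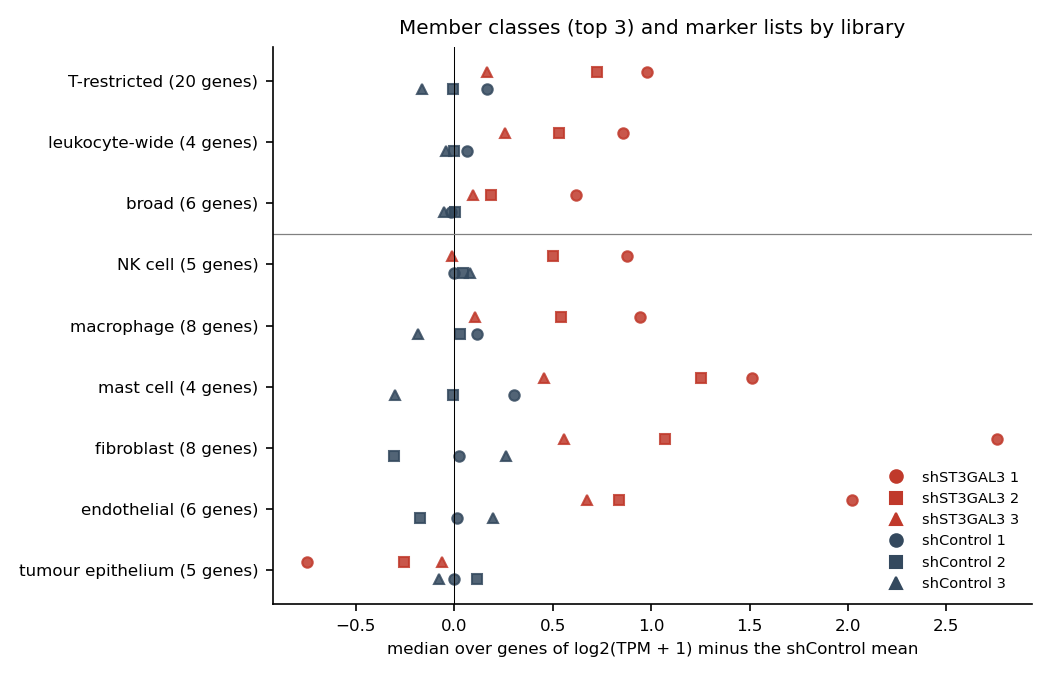
Median over tested genes of log2(TPM + 1) minus the shControl mean, for the 3 member classes (above the line) and 6 marker lists, 1 symbol per library with shST3GAL3 in red above shControl in dark blue. shST3GAL3 1 is the highest for every set but tumour epithelium, where it is the lowest, and for T-restricted members shST3GAL3 3 (0.16) lies beside shControl 1 (0.17).

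Other genes of the pathway were read from lists of proximal regulators, shared signalling genes and early response genes. Of the proximal regulators, largely genes of lymphocytes and other leukocytes, 19 of 21 were tested, 6 had an unadjusted p under 0.05 with higher values, against 9.19% of all tested genes, and 0 with lower values, and the median log2 fold change was 0.32. Fyb, the ADAP adaptor that partners Skap1, averaged 25.4 ± 3.59 TPM in shST3GAL3 and 16.1 ± 2.31 TPM in shControl tumours (0.63, SE 0.14). Ptpn22, a phosphatase that acts on Lck and Zap70, averaged 16.6 ± 2.64 TPM in shST3GAL3 and 10.8 ± 1.39 TPM in shControl tumours (0.56, SE 0.15). Sh2d2a, an adaptor that binds Lck, and Cblb, a ubiquitin ligase that restrains T cells, had log2 fold changes of 0.82 (SE 0.24) and 0.50 (SE 0.16). These 4 were named for the smallest p of the list. None of them overlapped between groups, and for each the limma adjusted p was 0.38. Over the list, 5 of the 19 had groups that did not overlap with shST3GAL3 higher, against 15.7% of all tested genes. The log2 fold change was positive for 18, against 52.7% of all tested genes, and that of Dgkz was -0.12 (SE 0.08).

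Of the shared signalling genes, most of which act in many cell types, 29 of 29 were tested. At an unadjusted p under 0.05, 2 were higher and 0 lower, a smaller share than the 9.19% and 3.78% of all tested genes. These 2 were Pik3r1, a regulatory subunit of phosphoinositide 3-kinase (0.33, SE 0.13), and Was, a leukocyte regulator of actin (0.43, SE 0.17). For 8 of the 29 the groups did not overlap with shST3GAL3 higher, against 15.7% of all tested genes. With shST3GAL3 lower this was so for 1, against 7.76%. The log2 fold change was positive for 22, against 52.7% of all tested genes, with a median of 0.10. Pik3cd, a catalytic subunit of phosphoinositide 3-kinase in leukocytes, had a log2 fold change of 0.45 (SE 0.19) with overlap. Of the early response genes, transcription factors that receptor signals and many other stimuli induce, 8 of 8 were tested, 0 had an unadjusted p under 0.05 in limma and 0 passed after adjustment. Their median log2 fold change was 0.26, with Nr4a3 at 0.57 (SE 0.31), Egr2 at 0.25 (SE 0.15), Egr1 at 0.27 (SE 0.19) and Irf4 at 0.45 (SE 0.35). For all 8 the groups overlapped.

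The promoters of the members differed in CG content between the classes. RefSeq promoters were found for 25 of the 33 members, 32 windows of 300 bases in all. The 23 windows of 18 T-restricted genes held a median of 4 CG dinucleotides, as seen in the sparse capitals of Cd3g, Cd3d and Cd3e above, with 1, 4 and 8 in Cd3d, Cd3g and Cd3e. The 5 windows of 4 broad genes held a median of 26, the count of Bcl10, and 20 at least, against a median of 7 over all 32851 promoters. At least 10 were present in 3 of the 23 T-restricted windows and 5 of the 5 broad windows, against 43.5% of all promoters. Rasgrp1 (26) and Prkcq (37) were T-restricted members with broad-type counts, and Lat had 10.

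Short motifs of lymphocyte factors were searched on both strands, and matches of different motifs may share their end letters. The ETS-type letters AGGAAG were present in 12 of 23 T-restricted windows (52.2%), against 35.4% of all promoters, and Cd3d, Cd3e and Cd247 held 2 copies each while Cd3g held 0. The RUNX-type letters TGTGGT were present in 6 of the 23 (26.1%), against 16.8% of all promoters. The GATA-type letters AGATAA were present in 3 of the 23 (13%), against 11.2% of all promoters, and Cd3g held 1 copy. AGGAAG was also present in 4 of 4 leukocyte-wide and 3 of 5 broad windows. These matches are descriptions of the letters in these windows.

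**Figure D5:**
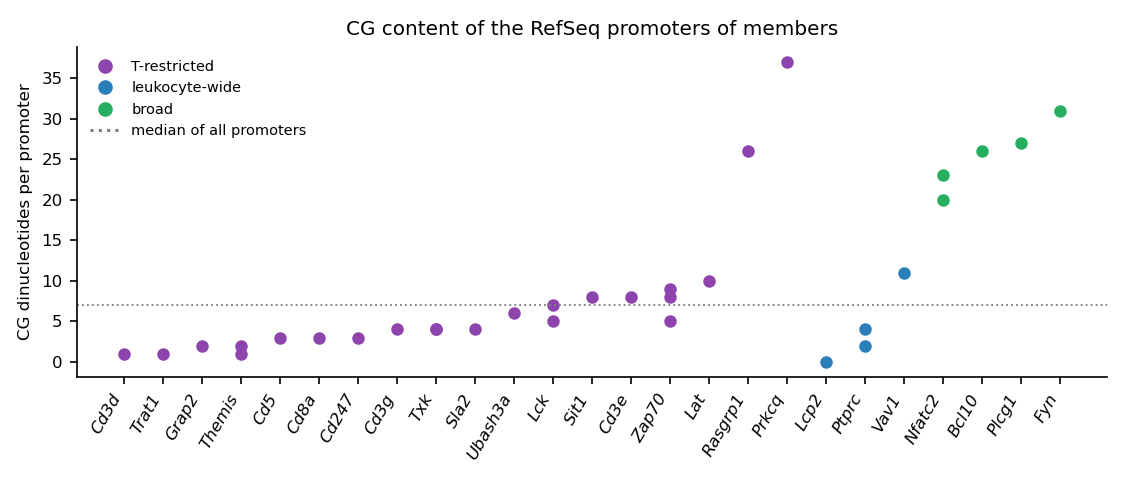
Number of CG dinucleotides in each RefSeq promoter window of 300 bases, by member and class, with 1 point per annotated start. The 4 broad members with a window lie at 20 or more, and most T-restricted members with one at or under 10, with Rasgrp1 at 26 and Prkcq at 37.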

How the data were processed

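RNA sequencing of 6 HM1 tumours was analysed, 3 shST3GAL3 and 3 shControl, grouped by their titles. The deposited values are TPM per gene, made by the authors. Tools credited in the submitters' processing notes are fastp, HISAT and RSEM, with the build GRCm39. Tool versions, annotation and strandedness were not given in the sources used here. Because TPM sums to the same total in each library, more of an abundant transcript lowers the rest. Depth is unknown, so no counting interval was given.

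Genes reaching a TPM of 1 in 3 or more libraries were fitted with limma 3.58.1 (R 4.3.3) on log2(TPM + 1) with a mean-variance trend and the group as the only term. The p-values were adjusted by Benjamini-Hochberg over all 14207 genes, with a threshold of 0.05. Fold changes on this scale understate low genes. TPM means carry the SD of 3 libraries, and fold changes carry limma's moderated SE. The fit was checked on simulated data, where it recovered 60.7% of log2 changes of 1 and 90.3% of those of 2, with 4.73% false among calls. The simulation gave each gene the same spread in all libraries, so it does not cover libraries of unequal spread.

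The members, classes and lists were chosen with earlier results of these data known. All members were named, and of the pathway lists up to 4 genes with the smallest p. Some list genes are not reported here. The 9 ratios, the comparison with Ptprc and the promoters shown were chosen after the values were seen. Fyb1, a newer symbol of Fyb, was found under the older one. Exon overlaps come from GENCODE M21 and promoters from RefSeq, both on GRCm38, another build than that of the files.

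Alternatives were another pseudocount, other filters and scalings, the replicate number as a block, limma's default library weights, no trend and leaving out each library. Added after seeing the data were leaving out shST3GAL3 2 with shControl 1, the library richest in muscle transcript in each group, and gene-by-gene library weights. These weights were added because the default estimation did not converge, at a time when its calls were known, and both are reported.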

Additional observations from a re-analysis of the deposited data

How the results depend on the processing

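All 30 tested members kept a positive log2 fold change in the 17 alternatives run, except Plcg1, which was -0.00346 with quantile normalization, -0.0474 with default library weights, -0.0122 with gene-by-gene library weights and, with 1 library left out, between -0.0154 and 0.11. The choice of library weights moved the calls most. Default weights called 695 genes (566 higher, 129 lower), 10 of them members, and put 28 members at an unadjusted p under 0.05, but their estimation did not converge. Gene-by-gene weights, added after those calls were known, called 8 genes, 0 of them members, and put 20 members under that p. Both gave shST3GAL3 1 the lowest weight and shST3GAL3 2 the highest. In the other 15 alternatives 0 members passed after adjustment. Over all genes the count called, 1, was 2 with a pseudocount of 0.1 or no trend and 1 to 3 with 1 library left out. The median log2 fold change of T-restricted members ranged from 0.44 to 0.82 and that of broad members from 0.14 to 0.40 when 1 library was left out. The count of members with an unadjusted p under 0.05 and higher values, 15, ranged from 4 to 25 when 1 library was left out, was 4 without both shST3GAL3 2 and shControl 1, where 3.52% of all tested genes met the rule, and was 10 with quantile normalization, where 6.19% did.

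With the replicate number as a block 1 gene was called and 16 members met the unadjusted rule, with the same medians. No sign of pairing by number was seen, since deviations of same-numbered samples correlated at 0.0145, -0.0799 and 0.0402 over genes. Between samples of unlike number the correlations ran from -0.123 to 0.128. With so few samples these values cannot exclude a pairing. Depth is unknown, which limits what can be said of members under 1 TPM.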
